A study of Mus musculus with 12 samples.

Results

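Collagen chain genes and 8 genes of collagen-modifying enzymes were followed in C2C12 cells, a mouse skeletal myoblast line that fuses into multinucleated myotubes when serum is lowered. Candidates were the 44 mouse genes whose symbol is Col, a number, the letter a and a number, with the prolyl 4-hydroxylase subunits P4ha1, P4ha2 and P4ha3, the lysyl hydroxylases Plod1, Plod2 and Plod3, the galactosyltransferase Colgalt1 and the prolyl 3-hydroxylase P3h1, 52 in all. Of these, 32 (24 chains and the 8 enzymes) reached 1 TPM (transcripts per 1000000) in at least 3 of 12 libraries and were kept among 13076 genes. The other 20 never exceeded 1.09 TPM. The choice of genes used names and this minimum level, and it was made with earlier results of these data known. Some genes met the level through 1 day only, so a day difference was built into their selection, as given below. Just inside the limit, Col24a1 reached 1 TPM in 4 libraries, and just outside it, Col11a1 and Col11a2 reached it in 1 library each.

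The 12 libraries of poly(A) RNA formed 4 groups of 3. The D2 siKctd10 and D2 siControl cells were differentiating. Their medium was changed to one with 2% horse serum at 24 h after siRNA, and they were harvested 48 h later. The D0 siKctd10 and D0 siControl cells were undifferentiated, stayed below confluence in medium with 10% fetal bovine serum and were harvested 48 h after siRNA. The siKctd10 cells received siRNA against Kctd10, which encodes an adaptor that brings substrates to CUL3 ubiquitin ligases, and siControl cells received a control siRNA. Day therefore changes together with serum, density and time since siRNA. All cells are one line, the labels do not say that replicates were separate cultures, and p-values then reflect only how far these samples spread, which can be technical.

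Depth estimated from the coverage was 12.51 to 18.08 read pairs per library, counted in units of 1000000. Kctd10 had 34.3, 26.8 and 35.1 TPM in D2 siKctd10 cells against 285, 276 and 289 TPM in D2 siControl cells, and 24.8, 24.5 and 20.0 TPM in D0 siKctd10 cells against 272, 258 and 269 TPM in D0 siControl cells. All 7 myogenic markers listed (among them Myod1, Myf5 and Des) passed the minimum level. Their summed level was 1920 to 2387 TPM in D2 siKctd10, 3081 to 3168 TPM in D2 siControl, 427 to 555 TPM in D0 siKctd10 and 463 to 472 TPM in D0 siControl libraries. At D2, Myod1, Myf5, Myog and Mylpf were lower in every siKctd10 library than in any siControl library. Myh3 and Pax7 overlapped, and Des reached 838 TPM in both groups. The lower sum in D2 siKctd10 cells accompanies every siRNA difference at D2 given here, and its part in them was not tested. In bulk RNA, fewer cells of a type and less RNA per cell cannot be told apart. Among 6 fibroblast markers, Tcf21 was listed at 0 everywhere, Thy1 stayed below 1 TPM, and 4 passed the minimum level. The sum was 34.4 to 42.1 TPM in D2 siKctd10 and 37.8 to 49.4 TPM in D2 siControl libraries. In D0 libraries it was 6.77 to 10.4 TPM with siKctd10 and 7.92 to 10.9 TPM with siControl. Single markers differed from the sum. At D2, Dpt had 1.25, 0.981 and 1.18 TPM in siKctd10 against 8.43, 6.40 and 7.07 TPM in siControl cells. Pi16 had 7.41, 8.36 and 8.90 TPM against 14.0, 12.9 and 12.3 TPM, while Pdgfra and Lum overlapped. Endothelial and adipocyte markers were at or near 0. Of 4 chondrocyte markers 2 passed the minimum level, and their sum was uneven within groups. Sox9 alone had 197, 44.2 and 203 TPM in D0 siControl libraries and 239, 154 and 53.6 TPM in D2 siControl libraries. Of 4 osteoblast and 4 macrophage or leukocyte markers 1 each passed, with sums of at most 4.47 and 2.55 TPM. On the second principal component of all genes, the siKctd10 libraries numbered 3 had the largest scores in size at both days, 42.4 each. The other siKctd10 libraries had 1.2 to 20.3, and siControl libraries had 16.3 to 26.3. These scores are given without sign, so the side on which each library lay is not shown.

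Collagens are trimers wound from chains whose helical part repeats a glycine at the first place of each triplet of residues. Fibrillar collagens form the load-bearing fibres of connective tissue, type IV collagen forms the network of basement membranes that wrap each muscle fibre, type VI collagen forms beaded microfilaments next to it, and fibril-associated collagens sit on the surface of fibrils. Newly made chains are hydroxylated on proline and lysine and glycosylated in the endoplasmic reticulum before the helix closes.

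The repeat is visible in the exons of these genes, and it bears on how the deposited levels were obtained. The exons below are shown because exons of the first kind are mostly listed without coverage and those of the second kind carry the measured coverage. The first set gives the first 54-base exon made only of whole repeats in each of the 3 most abundant fibrillar chains, Col1a1 (chr11:94939904-94939957, plus strand), Col1a2 (chr6:4515481-4515534, plus strand) and Col3a1 (chr1:45325360-45325413, plus strand), read 5′ to 3′ from GENCODE M21 transcripts on GRCm38 (mm10), with glycine codons in capitals.
Col1a1: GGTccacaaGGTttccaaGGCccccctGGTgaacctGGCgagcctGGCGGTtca
Col1a2: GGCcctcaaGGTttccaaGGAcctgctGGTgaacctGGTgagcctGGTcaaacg
Col3a1: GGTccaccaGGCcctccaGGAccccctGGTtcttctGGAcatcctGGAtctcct

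Each of these exons holds 6 triplets that begin with a glycine codon. Of 219 coding exons of 54 bases in the main transcripts of the fibrillar chains, 216 have this form. Exons of 54 bases made up 47.4% of the 462 exons of fibrillar chains, and 0.542% of the exons in the main transcripts of all kept genes. A read pair spans 202 bases, and in the deposited files exons shorter than that are mostly listed with a coverage of 0. Whether such exons lacked reads or were assigned none when coverage was computed was not settled. In transcripts with a coverage above 10, 30.1 to 34.3% of such exons had any coverage per library, against 90.6 to 91.2% of exons of at least 202 bases. Among collagen chains 91.6% of 1160 exons were shorter than the read pair, against 75.7% over all kept genes. The median chain had only 39.0% of its transcript length in exons covered in every library, against 68.5% over all kept genes. The share differed among the chains, from none of the length of Col14a1, Col24a1 and Col28a1 to 82.3% for Col6a3, 88.4% for Col5a1 and 95.8% for Col8a1. The longest internal exons that were covered in every library are shown for the type IV pair, Col4a1 (chr8:11207194-11207406, minus strand, 213 bases) and Col4a2 (chr8:11445960-11446246, plus strand, 287 bases), again with in-frame glycine codons in capitals.
Col4a1: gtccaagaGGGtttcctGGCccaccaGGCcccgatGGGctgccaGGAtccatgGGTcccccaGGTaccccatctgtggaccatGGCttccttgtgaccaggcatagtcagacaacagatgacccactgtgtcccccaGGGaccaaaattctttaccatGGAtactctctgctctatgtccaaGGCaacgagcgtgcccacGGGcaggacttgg
Col4a2: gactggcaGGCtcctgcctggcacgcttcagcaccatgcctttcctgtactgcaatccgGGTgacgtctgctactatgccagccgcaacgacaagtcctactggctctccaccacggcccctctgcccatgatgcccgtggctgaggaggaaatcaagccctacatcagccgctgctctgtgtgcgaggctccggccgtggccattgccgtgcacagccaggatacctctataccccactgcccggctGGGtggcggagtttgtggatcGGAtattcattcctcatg

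The Col4a1 exon holds 12 glycine codons among 70 whole codons, with the regular repeat in its 5′ part only, and the Col4a2 exon holds 4 among 95.

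In undifferentiated cells, Col4a2 of type IV collagen rose with siKctd10, and its partner Col4a1 lay higher in every siKctd10 library without passing the test over all 4 groups. The chains of the main basement membrane collagen, encoded by Col4a1 (chr8:11198423-11312826, minus strand) and Col4a2 (chr8:11312805-11449287, plus strand), start head to head, and their first exons overlap by 22 bases, where reads of the genes cannot be told apart since no label says that strand was used. Col4a2 had 54.1, 51.8 and 46.2 TPM in D0 siKctd10 cells against 26.3, 26.5 and 27.1 TPM in D0 siControl cells. Every siKctd10 library lay above every siControl library. Col4a2 rose at D0 by 0.90 ± 0.09 (log2 fold change of TPM + 1 ± standard error, limma adjusted p = 0.00099). At D2 it had 75.9, 78.4 and 83.1 TPM in siKctd10 cells against 50.7, 49.8 and 44.6 TPM in siControl cells, again without overlap. The rise at D2 was 0.70 ± 0.09 (limma adjusted p = 0.0029). The siRNA difference in Col4a2 was not shown to differ between the days (interaction of -0.20, limma adjusted p = 0.67).

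Col4a1 was also higher at D0, with 69.9, 68.3 and 77.9 TPM in siKctd10 cells against 27.6, 32.1 and 32.1 TPM in siControl cells. The D0 groups lay well apart, yet the log2 fold change of 1.21 ± 0.71 did not pass (limma adjusted p = 0.45). The spread in this fit is shared over all 4 groups, and 1 library, D2 siKctd10 replicate 1, was far from its group, with 8.81 TPM against 108 and 80.8 TPM in the other D2 siKctd10 libraries and 59.2, 68.4 and 72.4 TPM in D2 siControl cells. Without it, Col4a1 passed at D0 (1.21, limma adjusted p = 0.0031), and the D2 difference was 0.48 (limma adjusted p = 0.13) in place of -0.60 with it. A fit of the D0 groups alone also passed (limma adjusted p = 0.025).

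The low value in that library came from the 3′ terminal exon of Col4a1 (1460 bases). Its coverage per 1000000 read pairs was 0.00729 in D2 siKctd10 replicate 1, against 25.4 and 24.5 in the other D2 siKctd10 libraries and 19.7, 22.3 and 21.9 in D2 siControl libraries. The 213-base exon printed above had 14.3 in the same library, against 17.5 and 16.0 in the other D2 siKctd10 libraries and 11.5, 12.8 and 14.6 in D2 siControl libraries. Among the 3 covered exons of Col4a1, the drop was in the last one. Over the covered exons of at least 202 bases, coverage in D0 siKctd10 cells was 1.73 to 2.34 times that in D0 siControl cells for the 3 exons of Col4a1, and 1.62 to 2.19 times for the 5 exons of Col4a2. When each gene was represented by the median over its long exons, an alternative chosen after the data were seen, Col4a1 rose by 0.95 at D0 (limma adjusted p = 0.033) and Col4a2 by 0.97 (limma adjusted p = 0.041). At D2 the same alternative gave 0.17 for Col4a1 (limma adjusted p = 0.69) and 0.40 for Col4a2 (limma adjusted p = 0.099), so the D2 rise of Col4a2 was smaller on exon coverage than on TPM.

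**Figure D1:**
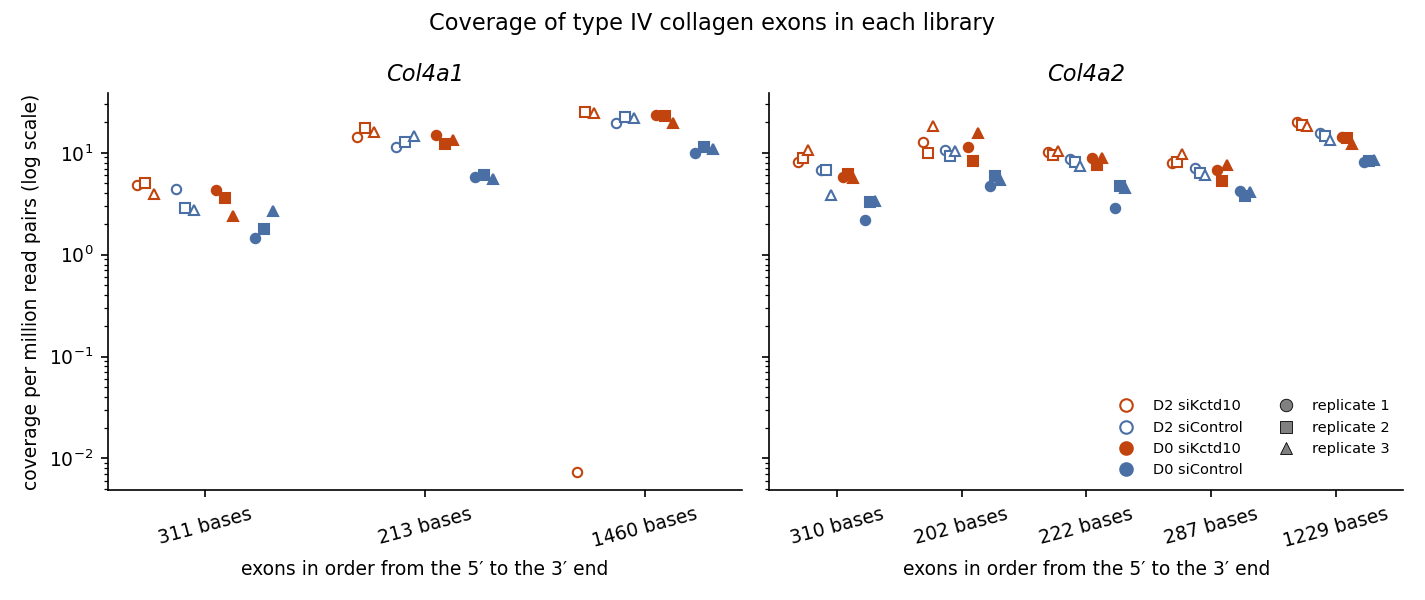
Coverage per 1000000 read pairs (log axis) of each Col4a1 and Col4a2 exon of at least 202 bases that was covered in every library, from the 5′ to the 3′ end; colours and fills give the 4 groups and symbols the replicate. In D0 cells the siKctd10 libraries lie above the siControl libraries in all exons except for an overlap in the first Col4a1 exon, and 1 D2 siKctd10 library falls to 0.00729 in the last Col4a1 exon.

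The summed type IV level (Col4a1, Col4a2 and the minor chain Col4a5) was 134, 128 and 131 TPM in D0 siKctd10 cells against 59.8, 65.2 and 65.8 TPM in D0 siControl cells. Col4a5 itself did not pass at D0 (0.34 ± 0.20, limma adjusted p = 0.45) or at D2 (0.00 ± 0.20, limma adjusted p = 1). The chains of the other basement membrane trimers, Col4a3, Col4a4 and Col4a6, stayed at or below 0.428 TPM.

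Among the 32 genes, 2 passed at D0, Col4a2 upward and Col6a2 downward, in a comparison where 2.45% of all genes passed (1.48% upward and 0.964% downward). At D2, 5 passed, Col12a1, Col4a2, Col8a2 and Col6a1 upward and Col14a1 downward, where 4.75% of all genes passed (2.83% upward and 1.92% downward). With median-ratio scaling, the split of all passing genes moved to 188 upward and 207 downward at D0, against 194 and 126, and to 265 and 407 at D2, against 370 and 251. The median log2 difference over the 32 genes was 0.16 at D2 and -0.02 at D0, against 0.08 and 0.05 over all genes. For the siRNA difference at D2 minus that at D0, 3 of the 32 passed, Col12a1, Col8a2 and Col6a2, all positive, where 0.742% of all genes passed (0.375% positive and 0.367% negative).

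**Figure D2:**
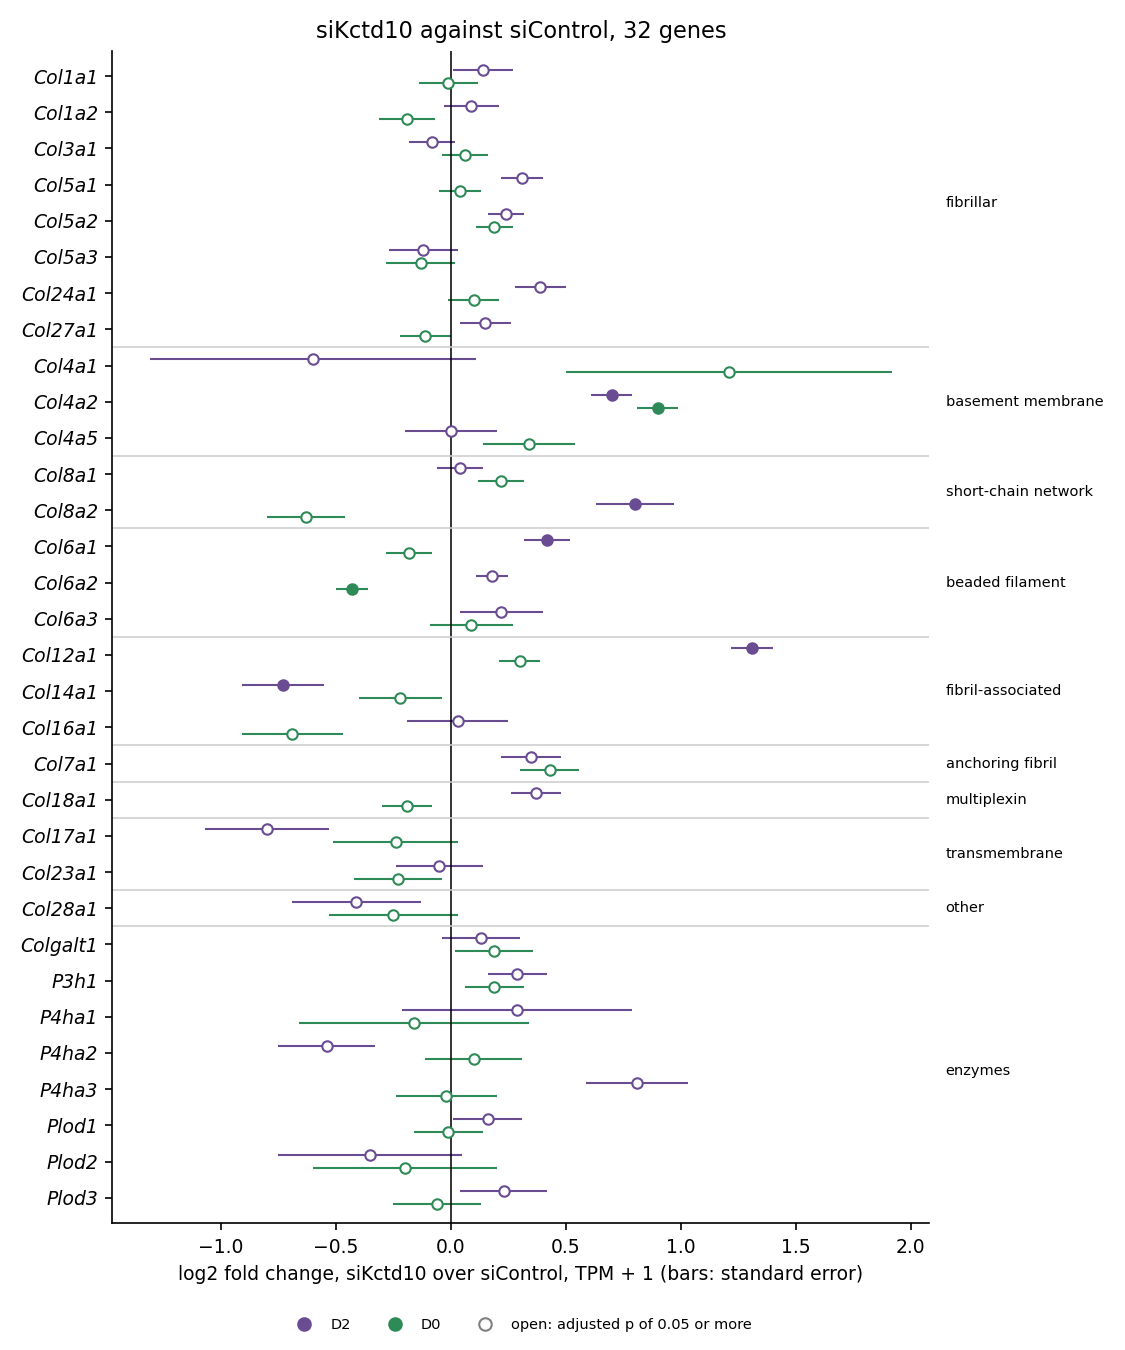
Log2 fold change of TPM + 1, siKctd10 over siControl, of the 32 genes by class at D2 (purple) and D0 (green), with standard errors from limma; filled points passed an adjusted p of 0.05. The filled points are Col4a2 on both days, Col6a2 at D0, and Col8a2, Col6a1, Col12a1 and Col14a1 at D2.

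In differentiating cells the largest siRNA difference was in Col12a1 (chr9:79598991-79718831, minus strand), the chain of type XII collagen, which decorates fibrils in tendon, fascia and muscle. Col12a1 had 206, 208 and 206 TPM in D2 siKctd10 cells against 75.1, 89.1 and 85.5 TPM in D2 siControl cells. It rose by 1.31 ± 0.09 at D2 (limma adjusted p = 0.00014), which is 2.47-fold on the TPM + 1 scale. At D0 it had 36.7, 39.6 and 36.8 TPM in siKctd10 cells against 30.4, 27.4 and 33.7 TPM in siControl cells. The D0 groups did not overlap, but the difference of 0.30 ± 0.09 did not pass (limma adjusted p = 0.15). The interaction was 1.01 ± 0.13 (limma adjusted p = 0.0097).

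The difference was not carried by a single exon. In each of 9 long covered exons, which hold 40.2% of the transcript length and do not reach its 5′ end, the D2 siKctd10 coverage was higher, by 2.16 to 2.74 times, and at D0 by 1.11 to 1.43 times. The call at D2 and the interaction held in every alternative tried, including each library left out in turn. A 273-base exon dropped out in D2 siKctd10 replicate 1 (0.276 per 1000000 read pairs) and in D2 siControl replicate 3 (0.0174), while the neighbouring exons did not.

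The related fibril-associated chain Col14a1 (chr15:55307750-55520803, plus strand) went the other way at D2. It had 1.87, 1.57 and 2.65 TPM in D2 siKctd10 cells against 3.12, 4.63 and 4.25 TPM in D2 siControl cells. The fall of -0.73 ± 0.18 passed narrowly (limma adjusted p = 0.0496) at a level where the added 1 in TPM + 1 matters, and it was lost under 15 of 22 alternatives. At D0 Col14a1 lay between 0.0865 and 0.512 TPM in both groups, too low for a comparison. The other member of the class, Col16a1, did not pass at D2 (0.03 ± 0.22, limma adjusted p = 0.97) or at D0 (-0.69 ± 0.22, limma adjusted p = 0.16), although its D0 values of 3.58, 4.18 and 5.26 TPM in siKctd10 cells lay below the 7.25, 8.16 and 7.18 TPM in siControl cells.

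Col8a2 (chr4:126286793-126314330, plus strand), a chain of the short-chain type VIII collagen that forms hexagonal lattices, lay higher in siKctd10 cells at D2 and lower in them at D0. At D2 it had 10.7, 9.55 and 8.00 TPM in siKctd10 cells against 4.88, 4.58 and 5.42 TPM in siControl cells, a rise of 0.80 ± 0.17 (limma adjusted p = 0.025) that was lost under 9 of 24 alternatives. At D0 it had 0.683, 0.820 and 0.374 TPM in siKctd10 cells against 1.44, 1.17 and 1.96 TPM in siControl cells, and the difference of -0.63 ± 0.17 did not pass (limma adjusted p = 0.088). Neither pair of groups overlapped, and the interaction was 1.43 ± 0.23 (limma adjusted p = 0.027). Its partner Col8a1 was far more abundant, at 180 to 219 TPM in D2 siKctd10 and 174 to 207 TPM in D2 siControl libraries, and did not pass on either day.

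**Figure D3:**
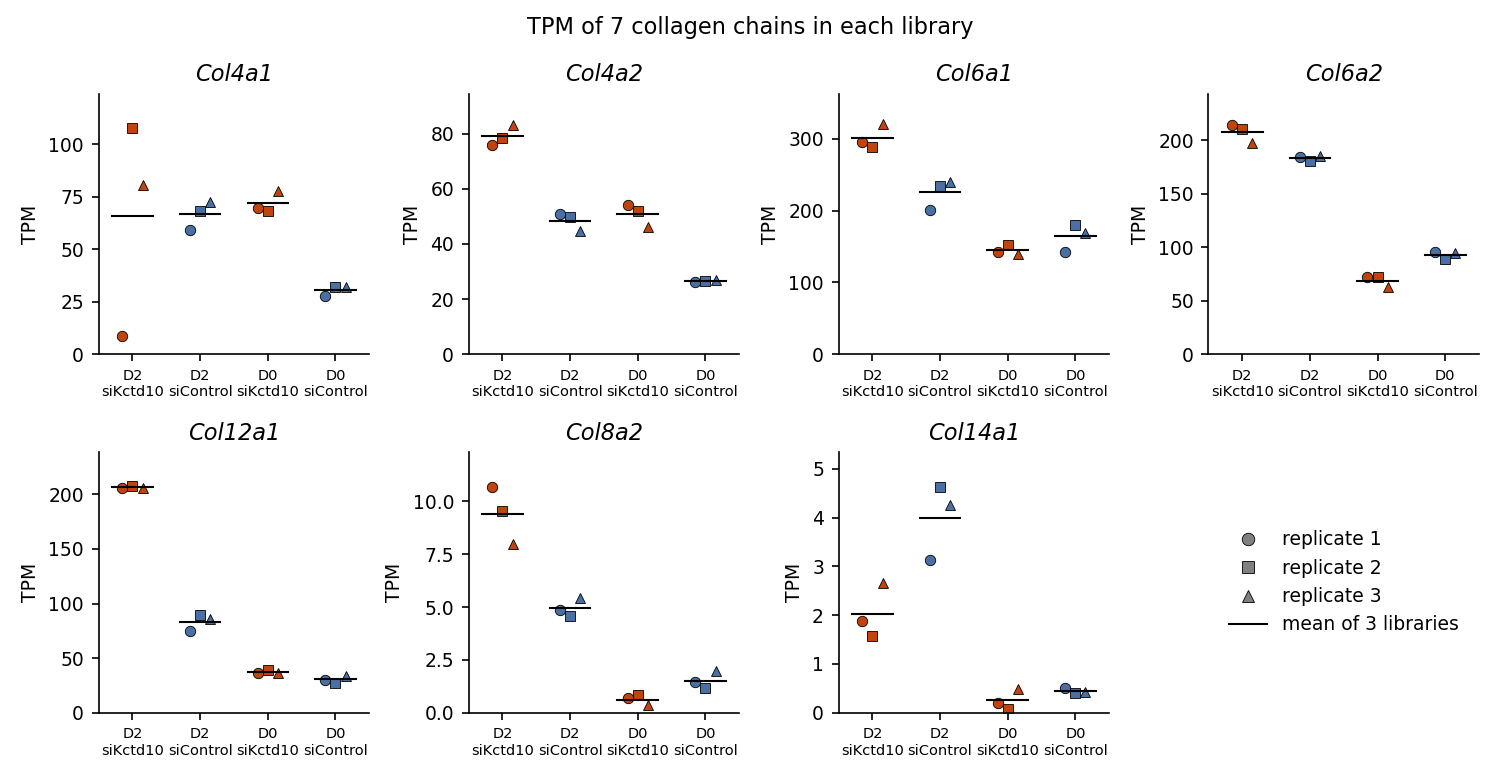
TPM of 7 chains in every library (symbols by replicate, red for siKctd10, blue for siControl) with the mean of 3 libraries as a line; each vertical axis starts at 0. The D2 siKctd10 libraries of Col12a1 sit at 206 to 208 TPM, all above the D2 siControl libraries, and 1 D2 siKctd10 library of Col4a1 falls to 8.81 TPM.

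Type VI collagen is made from chains encoded by Col6a1 (chr10:76708792-76726168, minus strand), Col6a2 (chr10:76595762-76623630, minus strand) and Col6a3, and mutations of these genes cause muscle disease in people. Col6a2 fell at D0, with 72.0, 72.2 and 62.5 TPM in siKctd10 cells against 95.7, 89.3 and 94.3 TPM in siControl cells (-0.43 ± 0.07, limma adjusted p = 0.019). At D2 it had 214, 211 and 197 TPM in siKctd10 cells against 184, 181 and 185 TPM in siControl cells, a difference of 0.18 ± 0.07 that did not pass (limma adjusted p = 0.23). The siRNA groups did not overlap on either day, and the interaction was 0.61 ± 0.10 (limma adjusted p = 0.034). The D0 call was lost without D0 siControl replicate 1 (limma adjusted p = 0.076) or replicate 3 (limma adjusted p = 0.059), with -0.41 and -0.42 as the differences, and in a fit of the D0 groups alone (limma adjusted p = 0.15).

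For Col6a1, TPM and exon coverage gave different pictures. By TPM it rose at D2, with 295, 289 and 321 TPM in siKctd10 cells against 201, 235 and 240 TPM in siControl cells (0.42 ± 0.10, limma adjusted p = 0.0465). At D0 it had 143, 152 and 139 TPM in siKctd10 cells against 143, 180 and 169 TPM in siControl cells, an overlap with no call (-0.18 ± 0.10, limma adjusted p = 0.45). Over its 2 long covered exons, which hold 1615 bases, the depth per 1000000 read pairs at D2 was 41.8, 40.4 and 38.4 in siKctd10 cells against 39.1, 35.9 and 36.7 in siControl cells, a narrow overlap. At D0 that depth was 22.3, 21.2 and 17.9 in siKctd10 cells against 29.4, 27.7 and 28.8 in siControl cells, without overlap. Limited to exons covered in every library, also chosen after the data were seen, the fit gave 0.13 at D2 (limma adjusted p = 0.41) and -0.47 at D0 (limma adjusted p = 0.014). On that measure Col6a2 fell by 0.51 at D0 (limma adjusted p = 0.0049). The depth of Col6a2 over its 3 long covered exons overlapped at D2. It was 24.1, 22.9 and 21.5 in siKctd10 cells against 22.6, 20.5 and 21.9 in siControl cells. The D2 call of Col6a1 on TPM was lost in 18 of 25 alternatives. Col6a3, the largest chain, did not pass on either day, and its exon coverage was uneven. The 746-base exon had 0.289 per 1000000 read pairs in D2 siKctd10 replicate 3 and 0.0181 in D2 siControl replicate 1, against at least 114 in the other 10 libraries. The 264-base exon had at most 0.243 in 5 of 6 D0 libraries and at most 0.0132 in 2 of 6 D2 libraries.

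None of the 8 fibrillar chains passed on either day in limma or with voom, and 3 at D2 and 1 at D0 had an unadjusted limma p under 0.05. The share of all genes under that unadjusted p is not given, so such counts here and below are description only. Log2 differences of the fibrillar chains ran between -0.12 and 0.39 at D2 and between -0.19 and 0.19 at D0. Col3a1, the most abundant member, had 2775, 2894 and 2735 TPM in D2 siKctd10 cells against 2794, 2847 and 3242 TPM in D2 siControl cells. Together, all 24 chains took 0.679, 0.707 and 0.662% of TPM in D2 siKctd10 libraries against 0.594, 0.659 and 0.670% in D2 siControl libraries, and 0.343, 0.357 and 0.305% in D0 siKctd10 libraries against 0.326, 0.333 and 0.334% in D0 siControl libraries. The total thus overlapped between the siRNA groups on both days. None of the remaining 5 chains passed either, in limma or with voom, and 3 at D2 and 1 at D0 had an unadjusted limma p under 0.05. They are Col7a1 of the anchoring fibrils, Col18a1, from which endostatin is cut, the transmembrane chains Col17a1 and Col23a1, and Col28a1. Col7a1 and Col18a1 had no overlap between the siRNA groups on either day, Col17a1 had none at D2 and Col28a1 none at D0. Among the fibrillar chains, Col5a1, Col5a2, Col24a1 and Col27a1 also had none at D2. The share of all genes without overlap is not given here, so this is description only. Col7a1 had 0.966, 0.971 and 1.47 TPM in D2 siKctd10 cells against 0.580, 0.668 and 0.761 TPM in D2 siControl cells, and 4.60, 4.11 and 4.39 TPM in D0 siKctd10 cells against 3.04, 3.33 and 2.56 TPM in D0 siControl cells. Col18a1 had 188, 249 and 234 TPM in D2 siKctd10 cells against 157, 176 and 182 TPM in D2 siControl cells, and 139, 125 and 142 TPM in D0 siKctd10 cells against 151, 156 and 155 TPM in D0 siControl cells. It thus lay higher with siKctd10 at D2 and lower at D0, with an interaction of 0.56 ± 0.15 that did not pass (limma adjusted p = 0.18).

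None of the 8 enzymes passed for siKctd10 against siControl in limma or with voom, and P4ha2 and P4ha3 at D2, and none at D0, had an unadjusted limma p under 0.05. They had log2 differences of -0.54 to 0.81 at D2 and -0.20 to 0.19 at D0. Of the 24 members with a mean of at least 5 TPM, 2 varied more than 3-fold within a group, P4ha1 and Col4a1 (8.33%, against 21.0% of all kept genes at that level). P4ha1 had 42.1, 176 and 179 TPM in D2 siKctd10 cells against 69.1, 76.4 and 137 TPM in D2 siControl cells. Its last exon (2301 bases) was almost without coverage in D2 siKctd10 replicate 1 and in D0 siKctd10 replicate 2. The same held in D2 siControl replicates 1 and 2, with coverage, scaled as above, of 0.00322 and 0.00276 against 14.7 in replicate 3. These D2 siControl values do not count as drops from the group's median below, since that median was itself near 0. The last exon of Plod2 (1353 bases) was almost without coverage in D2 siKctd10 replicate 2 and in D0 siKctd10 replicate 3. Such a drop, to under 5% of the group's median coverage, occurred in 13 of the 115 long exons of the 32 genes, in 11 genes. Measured against the group's highest library, a count added after the data were seen that also takes in exons that were near 0 in most libraries such as the first of Col3a1, it occurred in 16 exons of 13 genes. An absence of a call for P4ha1, Plod2 and the other genes concerned is therefore limited by these estimates. The largest enzyme difference was in P4ha3, with 4.14, 7.74 and 7.75 TPM in D2 siKctd10 cells against 3.52, 3.50 and 2.60 TPM in D2 siControl cells (0.81 ± 0.22, limma adjusted p = 0.068).

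More of these genes passed for the day than for the siRNA. Comparing D2 with D0, 21 rose and 1 fell in siKctd10 cells, where 36.4% of all genes passed (23.1% upward and 13.3% downward), and 19 rose and 2 fell in siControl cells, where 35.5% passed (21.4% upward and 14.0% downward). The median over the 32 genes was 0.81 in siKctd10 cells and 0.77 in siControl cells, against 0.12 and 0.09 over all genes. Under median-ratio scaling the medians over all genes were 0.00 and 0.01. The genes Col14a1, Col23a1, Col24a1, Col27a1 and Col28a1 were below 1 TPM in every D0 library and entered through D2, and Col7a1 reached it in 6 D0 libraries and 1 D2 library and entered through D0. A difference was built into the selection of these 6 genes, and their changes by day are description only. Without them, 16 of 26 rose and 0 fell in siKctd10 cells, and 14 rose and 1 fell in siControl cells.

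The 6 fibrillar chains that did not enter through D2 alone rose in both siRNA arms, and Col24a1 and Col27a1, which did, also lay higher at D2. Col3a1, which forms type III fibrils, had 2775, 2894 and 2735 TPM in D2 siKctd10 cells against 1089, 1207 and 936 TPM in D0 siKctd10 cells (1.39 ± 0.10, limma adjusted p = 3.2e-06). In siControl cells it had 2794, 2847 and 3242 TPM at D2 against 969, 1063 and 1062 TPM at D0 (1.52 ± 0.10, limma adjusted p = 1.5e-06). Col1a1, of type I collagen, had 559, 472 and 485 TPM in D2 siKctd10 cells against 184, 179 and 144 TPM in D0 siKctd10 cells (1.58 ± 0.13, limma adjusted p = 9.4e-06). In siControl cells it had 407, 539 and 439 TPM at D2 against 175, 158 and 175 TPM at D0 (1.43 ± 0.13, limma adjusted p = 1.6e-05). Its partner Col1a2 rose less, by 0.78 ± 0.12 in siKctd10 cells (limma adjusted p = 0.0005) and by 0.50 ± 0.12 in siControl cells (limma adjusted p = 0.0069).

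Type V chains, which nucleate fibrils, also rose in both arms. Col5a2 had 390, 398 and 351 TPM in D2 siKctd10 cells against 193, 184 and 160 TPM in D0 siKctd10 cells (1.08 ± 0.08, limma adjusted p = 6.4e-06). In siControl cells it had 310, 329 and 326 TPM at D2 against 161, 149 and 159 TPM at D0 (1.04 ± 0.08, limma adjusted p = 7.4e-06). Col5a3 had 32.7, 42.0 and 36.8 TPM in D2 siKctd10 cells against 16.6, 14.5 and 12.6 TPM in D0 siKctd10 cells, and 41.7, 39.4 and 40.0 TPM in D2 siControl cells against 19.1, 14.7 and 14.3 TPM in D0 siControl cells. Its rise was 1.29 ± 0.15 in both arms (limma adjusted p = 8.5e-05 and 8.2e-05), but the median over its long exons gave -0.40 ± 1.62 in siControl cells, where a 240-base exon had at most 0.0281 per 1000000 read pairs in every D2 siControl library against 4.27 in D0 siControl replicate 1 and at most 0.0210 in the other D0 siControl libraries.

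Among genes with a mean of at least 5 TPM at D2, the largest rises in siKctd10 cells were in Col8a2 (2.68 ± 0.17, limma adjusted p = 1.7e-06) and Col12a1 (2.43 ± 0.09, limma adjusted p = 1.1e-07), whose libraries are given above. Their order depends on the pseudocount, since Col8a2 averaged 0.626 TPM in D0 siKctd10 cells. With a pseudocount of 5 the rises were 1.35 for Col8a2 and 2.31 for Col12a1. In siControl cells they rose by 1.25 ± 0.17 (limma adjusted p = 0.00024) and 1.42 ± 0.09 (limma adjusted p = 2.3e-06). Col6a2 rose by 1.58 ± 0.07 in siKctd10 cells (limma adjusted p = 3.2e-07) and by 0.97 ± 0.07 in siControl cells (limma adjusted p = 5.3e-06). For these 3 genes the interaction given above is the test of the difference between the arms. Col16a1 and Col18a1 passed in siKctd10 cells (0.85 and 0.71) and not in siControl cells (0.13 and 0.15), and their interactions did not pass.

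The falls were few. Col7a1, which entered through D0, was lower at D2 in both arms. Its log2 difference was -1.34 in siKctd10 cells and -1.25 in siControl cells. A fall was built into its selection, so these values are description only. P4ha3 fell in siControl cells, with 3.52, 3.50 and 2.60 TPM at D2 against 6.51, 8.92 and 8.30 TPM at D0 (-1.08 ± 0.22, limma adjusted p = 0.0032). In siKctd10 cells it had 4.14, 7.74 and 7.75 TPM at D2 against 7.39, 8.34 and 7.45 TPM at D0, and did not pass (-0.25 ± 0.22, limma adjusted p = 0.41). Of the other enzymes, P3h1 rose in both arms, Plod1 in siKctd10 cells and P4ha2 in siControl cells, and the differences between arms did not pass for any enzyme in limma or with voom, with an unadjusted limma p under 0.05 in P4ha3 alone.

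**Figure D4:**
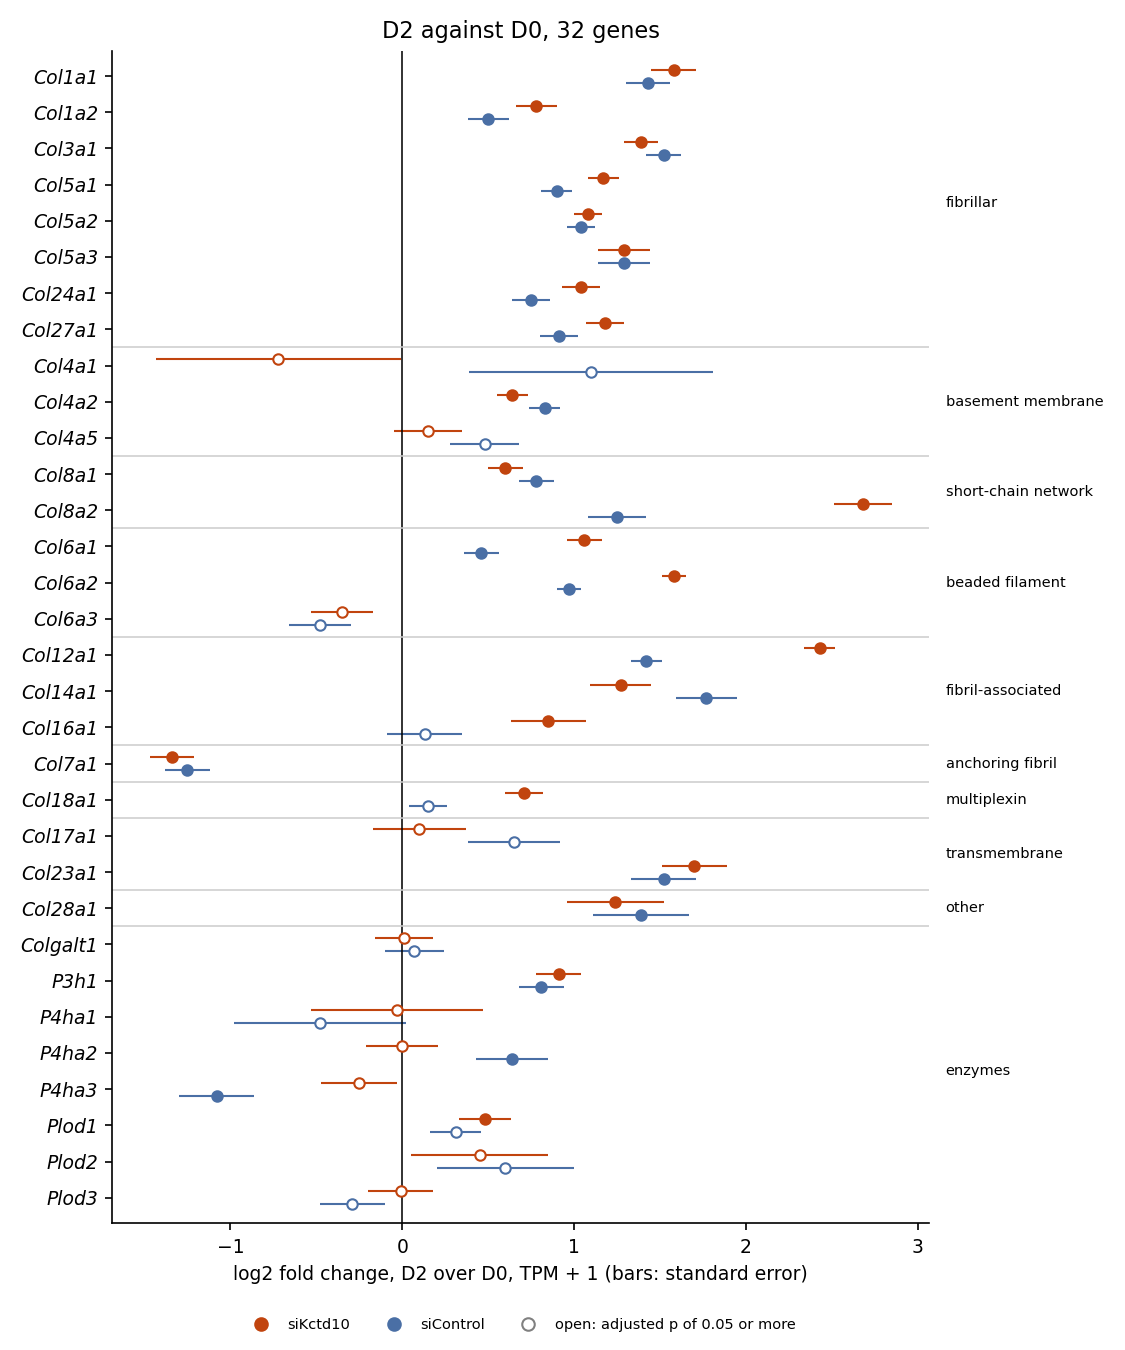
Log2 fold change of TPM + 1, D2 over D0, of the 32 genes by class in siKctd10 cells (red) and siControl cells (blue), with standard errors from limma; filled points passed an adjusted p of 0.05. The fibrillar chains are filled and positive in both arms, of which Col24a1 and Col27a1 entered through D2, and Col7a1, which entered through D0, is filled and negative in both.

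The depth ratios of Col6a1 to Col6a2 and of Col1a1 to Col1a2, chains that share a trimer, separated the days. That of Col4a1 to Col4a2 overlapped between the days in siControl cells. In siKctd10 cells it narrowly did not, with at most 1.48 at D2 against at least 1.50 at D0. Because most short exons are listed without coverage, depth over the long covered exons of each gene was also compared. The ratio of Col6a1 to Col6a2 depth was 1.73, 1.76 and 1.79 in D2 siKctd10 libraries against 2.50, 2.41 and 2.55 in D0 siKctd10 libraries, and 1.73, 1.75 and 1.67 in D2 siControl libraries against 2.46, 2.54 and 2.62 in D0 siControl libraries. The days did not overlap in either arm. The means of the siRNA groups were 1.76 in siKctd10 and 1.72 in siControl libraries at D2, and 2.49 in siKctd10 and 2.54 in siControl libraries at D0. The ratio of Col1a1 to Col1a2 depth was 0.290, 0.296 and 0.370 in D2 siKctd10 libraries against 0.156, 0.157 and 0.198 in D0 siKctd10 libraries, and 0.287, 0.294 and 0.275 in D2 siControl libraries against 0.154, 0.148 and 0.159 in D0 siControl libraries. The Col1a1 share thus stood higher at D2 in every library. For Col4a1 to Col4a2 the ratio was 1.73, 1.76 and 1.50 in D0 siKctd10 libraries against 1.36, 1.43 and 1.38 in D0 siControl libraries, and at D2 it was 0.151, 1.48 and 1.33 in siKctd10 libraries against 1.36, 1.60 and 1.77 in siControl libraries. The depth ratios compare exons of different sequence. All ratios here are read as relative shifts, not as numbers of chains, and were not tested.

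**Figure D5:**
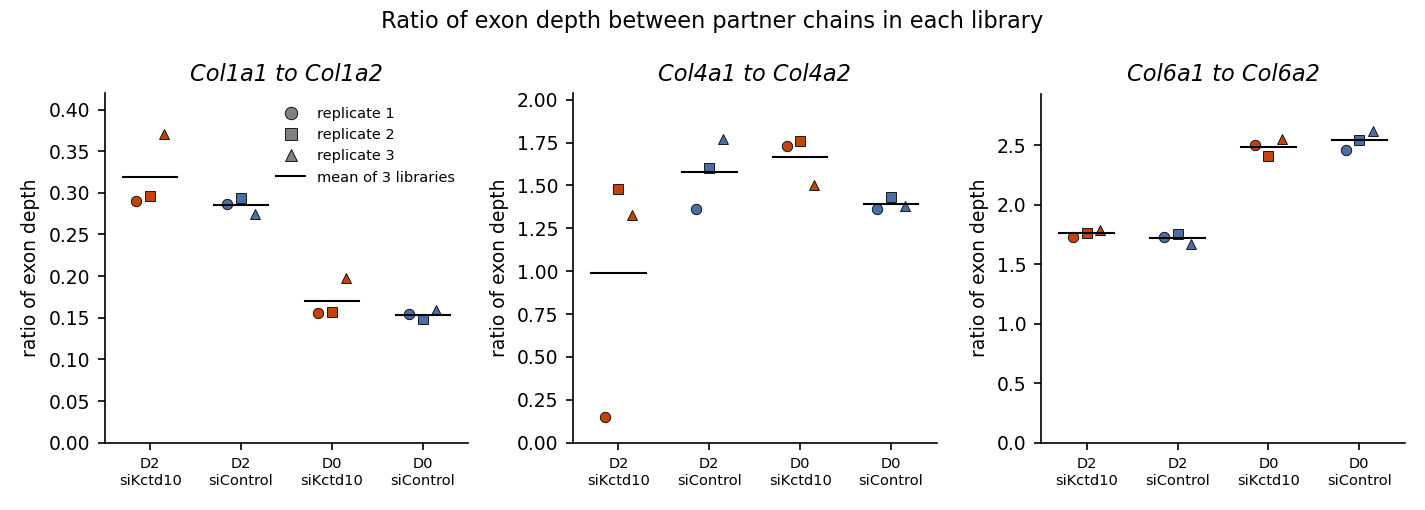
Ratio of coverage depth over long covered exons between partner chains in every library (symbols by replicate, red for siKctd10, blue for siControl), with the mean of 3 libraries as a line. The Col6a1 to Col6a2 ratio is 1.67 to 1.79 in D2 libraries and 2.41 to 2.62 in D0 libraries, and 1 D2 siKctd10 library falls to 0.151 for Col4a1 to Col4a2.

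Other genes that fold, export, process, cross-link, bind or degrade collagen were taken from a list of 50, of which 43 passed the minimum level. For siKctd10 against siControl, 3 of 43 passed at D2, where 4.75% of all genes passed, and 1 at D0, where 2.45% passed, all upward. The D0 share is near that of all genes. At D2 they were Creb3l1, a transcription factor of the secretory pathway that drives collagen genes in bone, and the matrix proteases Mmp2 and Mmp14. Creb3l1 had 167, 168 and 168 TPM in D2 siKctd10 cells against 92.9, 94.3 and 99.5 TPM in D2 siControl cells (0.81 ± 0.09, limma adjusted p = 0.0019). Mmp2, a gelatinase that cuts type IV collagen, had 416, 376 and 357 TPM in D2 siKctd10 cells against 242, 240 and 233 TPM in D2 siControl cells (0.68 ± 0.14, limma adjusted p = 0.023). Mmp14, the membrane protease that activates it, had 1093, 1125 and 831 TPM in D2 siKctd10 cells against 773, 677 and 710 TPM in D2 siControl cells (0.49 ± 0.11, limma adjusted p = 0.042). In each of these genes the D2 siKctd10 libraries lay above all D2 siControl libraries. At D0 the gene was Creb3l2, a paralogue of Creb3l1, with 109, 114 and 95.8 TPM in siKctd10 cells against 80.9, 73.6 and 86.5 TPM in siControl cells (0.40 ± 0.08, limma adjusted p = 0.041). No gene of the list passed the interaction in limma or with voom, and 7 had an unadjusted limma p under 0.05, Creb3l1 among them (0.65 ± 0.13, limma adjusted p = 0.063). With voom on estimated read pairs, Creb3l1 and Mmp2 passed at D2 and none of the 43 at D0.

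With differentiation, 16 of the 43 rose and 4 fell in siKctd10 cells, where 23.1% of all genes rose and 13.3% fell, and 15 rose and 4 fell in siControl cells, where 21.4% rose and 14.0% fell. The largest rises were in the collagen-binding integrin subunits Itga10 and Itga11 and in Mmp2 and Mmp14. Itga10 rose by 4.31 ± 0.32 in siKctd10 cells (limma adjusted p = 5.8e-06) and by 3.49 ± 0.32 in siControl cells (limma adjusted p = 2.2e-05). Itga11 had 7.75, 7.14 and 7.59 TPM in D2 siKctd10 cells and 4.82, 3.65 and 5.40 TPM in D2 siControl cells, against at most 0.332 TPM in D0 cells. It met the minimum level through D2 alone, so its rise, counted above, is description only. Among the 6 measured turnover genes 4 rose in both arms, the proteases Mmp2 and Mmp14 together with the inhibitors Timp2 and Timp3. The falls in siKctd10 cells were in the cross-linking enzymes Loxl2 and Loxl4, in Pcolce2, an enhancer of procollagen cleavage, and in Sec24d of the coat that exports cargo from the endoplasmic reticulum (-0.48 ± 0.14, limma adjusted p = 0.024). Loxl2 had 12.6, 6.44 and 13.8 TPM in D2 siKctd10 cells against 59.4, 46.2 and 39.7 TPM in D0 siKctd10 cells (-2.09 ± 0.60, limma adjusted p = 0.021). In siControl cells it had 17.1, 15.1 and 83.9 TPM at D2 against 14.6, 6.42 and 14.5 TPM at D0, and did not pass (1.26 ± 0.60, limma adjusted p = 0.13). The interaction of Loxl2 was the largest of the list in size, at -3.35 ± 0.85, and did not pass (limma adjusted p = 0.14). Loxl4 fell by 1.76 ± 0.54 in siKctd10 cells (limma adjusted p = 0.028). Pcolce2 fell by 1.23 ± 0.10 in siKctd10 cells (limma adjusted p = 1.2e-05) and by 1.32 ± 0.10 in siControl cells (limma adjusted p = 6.5e-06). The other falls in siControl cells were in Crtap, Loxl3 and Pdcd6, by 0.61, 0.51 and 0.32. Adamts2, a procollagen N-proteinase, rose by 1.59 ± 0.09 in siKctd10 cells and 1.33 ± 0.09 in siControl cells (limma adjusted p = 1.2e-06 and 3.2e-06). Lox, the founding cross-linking enzyme, ranged from 218 to 737 TPM in D2 siKctd10 libraries and from 221 to 686 TPM in D2 siControl libraries, too unsteady for a comparison.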

How the data were processed

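Poly(A) RNA of 12 C2C12 libraries was analysed. Per the file headers, the authors estimated transcripts with StringTie 1.3.3b against a fixed annotation, while per the submitters' processing notes the tools were HISAT, SAMtools, StringTie 1.1.3 and DESeq2 on mm10. The deposited values are coverage, FPKM and TPM, not counts. Transcripts (63759) were matched to GENCODE M21 genes on the same build by identical introns (42608) or exon overlap of at least 50% (13473), and TPM was summed per gene. Genes with 1 TPM or more in at least 3 libraries were fitted as log2(TPM + 1) with limma 3.58.1 in R 4.3.3 (4 group means, trend, robust, two-sided, Benjamini-Hochberg over all 13076 genes, threshold 0.05). Fold changes on this scale understate those of low genes, and no counting interval was computed. Scripts were tested on simulated data. Read pairs were estimated from coverage and length. Members, classes and lists were chosen with earlier results of these data known. All genes past the threshold for siRNA or interaction, and the 5 largest rises and falls by day at 5 TPM or more, are given in full. Alternatives were other pseudocounts, filters, scalings, voom, fits and matching, each library left out, and exon-based levels. Libraries of equal replicate number had correlations of deviations from -0.02 to 0.20. Between D0 and D2 siKctd10 libraries these were 0.09, 0.05 and 0.20, and whether numbers pair those samples was not settled. The main fits used no replicate block, and counts with one are given below.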

Additional observations from a re-analysis of the deposited data

Results flagged for a closer look

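The siRNA difference at D2 minus that at D0 passed for Col12a1, Col8a2 and Col6a2, by a test of the difference itself in limma. It was 1.01 for Col12a1, with siKctd10 higher on both days, 1.43 for Col8a2 and 0.61 for Col6a2, with siKctd10 higher at D2 and lower at D0 for both. By TPM each showed this direction in every library pair of the siRNA groups, since none overlapped on either day. Taken alone, the D2 difference of Col6a2 and the D0 difference of Col8a2 did not pass. On exon depth the D2 siRNA groups of Col6a2 overlapped. The Col8a2 and Col6a2 differences each lost the call in 9 of the 12 fits that left out a library, with adjusted p of at most 0.086 and 0.09 over all alternatives, and that of Col12a1 kept it in all 24 alternatives.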

How the results depend on the processing

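The counts of genes passing kept within 1.5 times in 98 of 124 alternative values. For differentiation they ranged over 20 to 22 genes in siControl cells and 21 to 23 in siKctd10 cells when a library was left out. For siKctd10 against siControl at D2, 5 genes became 2 with a pseudocount of 0.1 or with the D2 groups alone, 3 with a filter of mean TPM of at least 5, and 2 to 5 without single libraries. On exon measures, which were chosen after the data were seen, they became 3 with exons covered in every library and 1 with the median over long exons. At D0, 2 genes became 1 to 3 without single libraries and 4 on either exon measure. For the interaction, 3 genes became 1 to 3 without single libraries. With the replicate block, 3 genes passed at D2 and 1 for the interaction, in place of 5 and 3, 2 passed at D0, and 20 and 21 for the day in siControl and siKctd10 cells. Col12a1 and Col4a2 at D2 and Col4a2 at D0 kept their calls except for Col4a2 at D2 on the median over long exons. The direction turned for Col4a1 at D2 (0.48 without D2 siKctd10 replicate 1 and 0.17 on the median over long exons, in place of -0.60, with -1.25 as the lowest value without a library) and for Col5a3 by day in siControl cells (-0.40 on that median). Causes not shown by these values were not tested. Depth limits calls for chains near 1 TPM, and short exons listed without coverage limit the levels of most chains.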
